A study of Mus musculus with 27 samples.

Results

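The 4 myogenic basic helix-loop-helix (bHLH) factors *Myod1*, *Myog*, *Myf5* and *Myf6*, and *Gm45923*, the transcript that starts upstream of *Myod1* and is taken here as the MyoD enhancer RNA, were followed in C2C12 cells that received NFIA. The 5 members were found by their gene symbols among the 24825 rows of each expression file, and each had 1 row. The cells were C2C12 myoblasts, a mouse muscle precursor line, infected with a retrovirus that was empty (control cells), carried full-length NFIA, or carried the Δpro#3 mutant, which lacks the last residues of the protein, within its C-terminal proline-rich domain. RNA was sequenced on day 0 and day 7, the latter also following 10 µM forskolin for 4 h, with 3 samples in each of the 9 groups and 27 in all. Forskolin activates adenylyl cyclase and so raises cAMP. The labels give 1 adipogenic protocol for every sample, in which confluent cells were held for 48 h in 10% serum with 0.5 mM isobutylmethylxanthine, 125 nM indomethacin, 1 µM dexamethasone, 1 nM T3, 1 µM rosiglitazone and 850 nM insulin, and then in serum with insulin, T3 and rosiglitazone alone. The study describes the earlier time point as before differentiation, so these cells are taken as not yet induced. The labels do not say that the 3 samples of a group were separate cultures, so the p-values measure the spread between these samples, which may be technical.

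The myogenic bHLH factors are transcription factors that pair with an E protein, bind the E-box and switch on the genes of skeletal muscle. MyoD and Myf5 mark the myoblast, myogenin (*Myog*) accompanies the commitment to fuse, and Myf6, also called MRF4, is highest in differentiated fibres. *Myod1* is regulated by upstream enhancers, among them the distal regulatory region, from which an enhancer RNA is transcribed.

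In the GENCODE annotation of NCBIM37 (the same assembly as mm9, the build of the files), *Myod1* (ENSMUSG00000009471.3) lay on chromosome 7 at chr7:53631844-53634462 on the plus strand, and *Myog* (ENSMUSG00000026459.4) on chromosome 1 at chr1:136186581-136189124 on the plus strand. *Myf5* (ENSMUSG00000000435.1, chr10:106919964-106923190) and *Myf6* (ENSMUSG00000035923.3, chr10:106929916-106931785) lay next to each other on the minus strand of chromosome 10, with 6.73 kb between them. *Gm45923* had no entry in that annotation. Its RefSeq start, placed by an exact sequence match, was base 53626773 of chromosome 7 on the plus strand, 5.07 kb upstream of the start of *Myod1*.

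The 250 bases before the RefSeq start were available for 3 of the 5 members and are shown because these are the sites at which the measured transcripts begin. RefSeq gives them for GRCm38.p6, and each was found once in NCBIM37. Capitals mark the E-box, CANNTG, which reads the same in letters on both strands. The windows are chr1:136186331-136186580 (plus strand) for *Myog*, chr7:53626523-53626772 (plus strand) for *Gm45923* and chr10:106923191-106923440 (minus strand) for *Myf5*.
Myog: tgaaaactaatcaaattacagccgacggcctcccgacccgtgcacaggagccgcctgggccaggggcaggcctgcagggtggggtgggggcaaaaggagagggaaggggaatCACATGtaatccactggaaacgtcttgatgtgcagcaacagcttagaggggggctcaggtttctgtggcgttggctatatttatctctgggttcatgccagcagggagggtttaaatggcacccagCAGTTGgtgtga
Gm45923: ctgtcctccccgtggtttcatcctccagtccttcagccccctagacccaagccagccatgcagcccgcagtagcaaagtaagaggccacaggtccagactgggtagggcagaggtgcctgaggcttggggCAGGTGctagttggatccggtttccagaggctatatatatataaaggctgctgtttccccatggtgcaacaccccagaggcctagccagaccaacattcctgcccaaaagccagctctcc
Myf5: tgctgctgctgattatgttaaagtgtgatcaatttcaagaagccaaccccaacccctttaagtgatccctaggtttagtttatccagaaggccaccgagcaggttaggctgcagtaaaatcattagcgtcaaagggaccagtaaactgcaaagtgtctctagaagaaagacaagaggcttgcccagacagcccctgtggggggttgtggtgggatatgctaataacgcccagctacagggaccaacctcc

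*Myog* held 2 E-boxes, which began 138 and 12 bases before the start, *Gm45923* held 1, which began 120 bases before it, and *Myf5* held 0. Of all 32536 RefSeq windows of this length, 66.2% held at least 1 E-box and 31.7% at least 2, so these counts are ordinary. The E-box form CAGCTG, which 13.1% of the windows held, was in none of the 3. The NFI motif TTGGC, read on both strands, occurred once in *Myog* (68 bases before the start), once in *Myf5* (209 bases before it) and not in *Gm45923*, against 41.6% of all windows with at least 1. The CACCC box, on both strands, occurred 3 times in *Myog*, once in *Gm45923* and not in *Myf5*. Of all windows, 52.1% held at least 1 and 6.96% at least 3. These are matches of letters and were not tested as binding sites.

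Levels are in FPKM, that is fragments scaled to transcript length and to the counted fragments of the library, and were compared on the scale of log2(FPKM + 1), on which the change of a low gene is understated. A change was tested with limma across all genes with a mean of at least 0.5 FPKM in the samples compared, and p-values were adjusted by the Benjamini-Hochberg method over those genes. "Rose" and "fell" are used for an adjusted p under 0.05, and "called" also asks for a change over 3-fold in FPKM + 1. The first threshold alone passed 8873 of the 12105 genes tested between full-length NFIA and control at day 0, so the size of a change is given throughout. Each construct was compared with the same 3 control samples at a time point. Since these are bulk samples, fewer cells of a type and less RNA per cell cannot be told apart.

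The files held 9567769 to 27230965 counted fragments per sample. *Nfia* stood at 225 to 250.2 FPKM in the full-length samples and 397 to 423 FPKM in the mutant samples at day 0, against 0.879, 7.35 and 0.175 FPKM in the control samples. The order of the constructs was the other way later, with means of 482 FPKM in full-length and 413 in mutant samples at day 7 (overlapping) and 539 and 294 FPKM after forskolin (not overlapping), and its part in the differences between the constructs was not tested. The control sample with 7.35 FPKM stood apart for this gene, and the day 0 values of the members without it are given beside the results. Of the 8 markers of myoblasts and muscle, 7 or 8 were above 1 FPKM on average in each group. *Myod1* and *Myf5* are among these 8, so the list is not independent of the members. The 8 summed to 929 to 938 FPKM in control cells, 258 to 267 in full-length NFIA cells and 591 to 603 in mutant cells at day 0. At day 7 the sums were 1016 to 1120, 540.5 to 620 and 1371 to 1494 FPKM, in the same order. Summed adipocyte markers (7 genes, *Adipoq*, *Fabp4* and *Pparg* among them) reached 2.18 to 2.83 FPKM in control cells, 25.1 to 27.3 in full-length NFIA cells and 9.63 to 17.9 in mutant cells at day 0. At day 7 they reached 165 to 190 FPKM, 12470 to 13880 and 347 to 1634, in the same order. The 4 fibroblast and mesenchymal markers summed to 1115 to 1299, 623 to 692 and 765 to 863 FPKM at day 7, and the 7 markers of blood, vessel and epithelial cells to 7.81 to 15.9 FPKM over the 3 groups. *Epcam* and *Krt5* were at 0 in all 9 of these libraries. These levels moved with the constructs, and their part in the members' changes was not tested.

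**Figure D1:**
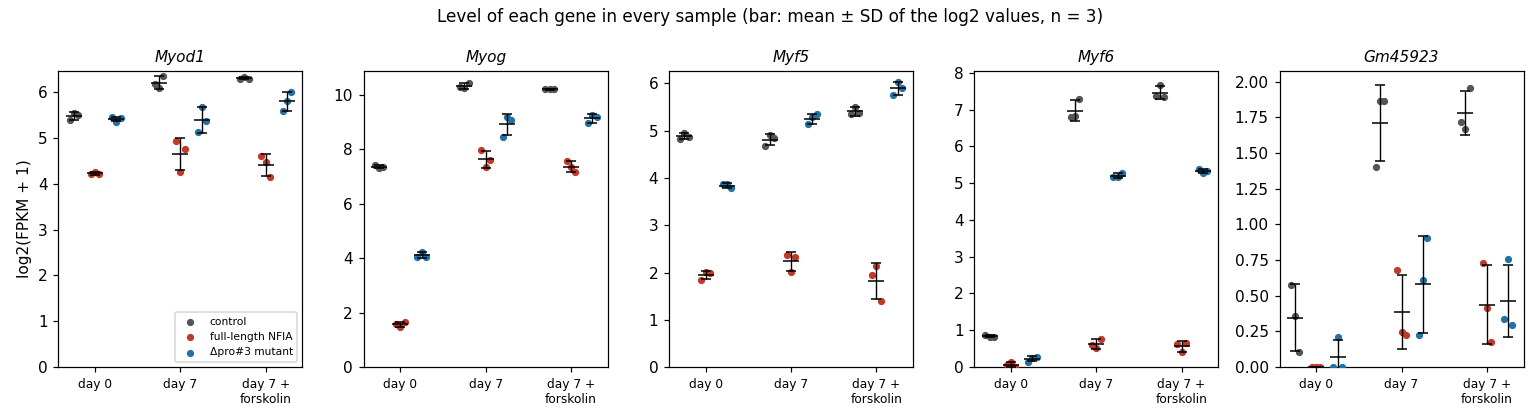
Level of the 5 members in every sample as log2(FPKM + 1), by time point and construct, with a separate axis for each gene; points are samples, and bars are the mean ± SD of the log2 values (n = 3). *Myod1* in the Δpro#3 mutant at day 0 lies among the control samples, while *Myog* and *Myf5* at the same time lie between control and full-length NFIA.

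The first question was how the myogenic factors differed between the constructs at day 0. *Myod1*, the myoblast factor, stood at 40.9, 45.8 and 44.6 FPKM in the control samples 1 to 3 at day 0, at 17.5, 18.3 and 17.6 FPKM in full-length NFIA cells and at 42.9, 40.0 and 42.2 FPKM in mutant cells. The full-length samples lay below all control samples, and the mutant samples overlapped with the controls. *Myod1* fell by 1.25 ± 0.04 on the log2 scale (SE, n = 3 per group) in full-length NFIA cells (2.38-fold in FPKM + 1, limma adjusted p = 7.93e-10), which is short of a call. With the mutant the log2 change was -0.07 ± 0.04 with a 95% confidence interval of -0.16 to 0.03 (limma adjusted p = 0.219). The mutant samples were 2.27-fold higher than the full-length samples (log2 change 1.18 ± 0.04, limma adjusted p = 3.20e-09).

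*Myog*, which follows *Myod1* at commitment, stood at 168, 156 and 161 FPKM in the control samples at day 0, at 1.98, 1.77 and 2.15 FPKM in full-length NFIA cells and at 15.4, 17.9 and 15.5 FPKM in mutant cells. No 2 groups overlapped. It fell by 5.78 ± 0.06 on the log2 scale in full-length NFIA cells (limma adjusted p = 1.55e-13) and by 3.24 ± 0.06 in mutant cells (limma adjusted p = 3.65e-11), and both were called. In mean FPKM these were differences of 82.2-fold and 9.93-fold. The mutant was 5.82-fold above full-length NFIA in FPKM + 1 (limma adjusted p = 1.64e-10).

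*Myf5*, the other myoblast factor, stood at 27.5, 30.1 and 28.0 FPKM in control samples, at 2.60, 3.01 and 2.97 FPKM in full-length NFIA cells and at 13.7, 13.6 and 12.7 FPKM in mutant cells. The mutant samples were again between the other groups, with no overlap. *Myf5* fell by 2.94 ± 0.05 on the log2 scale in full-length NFIA cells, which was called (limma adjusted p = 4.92e-12), and by 1.04 ± 0.05 in mutant cells (2.06-fold, limma adjusted p = 2.85e-08), which was not.

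Of the 3 members tested at day 0, 2 were called lower in full-length NFIA cells, where 2.78% of all genes tested were called lower, and 1 in mutant cells, where 1.32% were. Between the constructs, *Myog* and *Myf5* were called higher in mutant cells, against 0.925% of all genes. Without the control sample that stood apart in *Nfia*, the log2 changes in full-length NFIA cells were -1.22 for *Myod1*, -5.81 for *Myog* and -2.90 for *Myf5*, and those in mutant cells were -0.03, -3.26 and -1.01, with the same calls.

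The remaining members were too low at day 0 for the test across genes. *Myf6* stood at 0.844, 0.765 and 0.768 FPKM in control samples (25, 26 and 25 fragments), at 0.0313, 0.0953 and 0 FPKM in full-length NFIA cells (1, 3 and 0 fragments) and at 0.110, 0.196 and 0.216 FPKM in mutant cells (3, 6 and 7 fragments). The control samples were above all others (exact permutation test, two-sided, p = 0.1 for each construct against control, which is the smallest p that 3 against 3 allows). Its mean FPKM was 18.8-fold lower in full-length NFIA cells (95% counting interval 5.75 to 57.7, from 4 fragments against 76) and 4.56-fold lower in mutant cells (2.58 to 8.20, from 16 fragments).

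*Gm45923* gave 6, 4 and 1 fragments in control samples at day 0 (0.488, 0.284 and 0.0740 FPKM), 0 in each of the full-length samples and 0, 2 and 0 in the mutant samples (0.157 FPKM in the second). With 0 fragments in full-length NFIA cells, the 95% counting interval for control over full-length NFIA began at 2.03-fold. The exact permutation test, two-sided, gave p = 0.1, the smallest p possible here. Against a floor of 3 fragments over the group, with the control count taken as exact, the ratio was 2.96. For the mutant the ratio of control to mutant was 5.39 (95% counting interval 1.13 to 48.0, exact permutation p = 0.2). At these counts a difference between the constructs was not detectable. These intervals cover counting error alone.

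**Figure D2:**
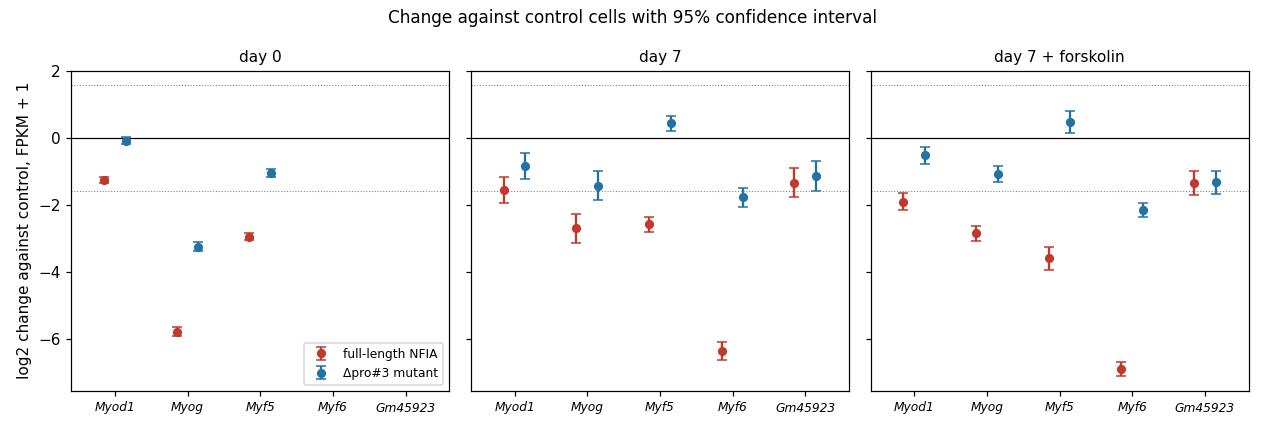
Change of each member against control cells in log2(FPKM + 1) with its 95% confidence interval, for both constructs at each time point; dotted lines mark 3-fold, and *Myf6* and *Gm45923* are not shown at day 0, where they were below the filter. *Myf5* in mutant cells changes side, from 2.06-fold below control at day 0 to 1.37-fold above it at day 7.

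The same comparison was made after 7 days of the adipogenic protocol. *Myod1* stood at 71.3, 67.2 and 81.0 FPKM in control samples at day 7, at 29.5, 18.3 and 25.9 FPKM in full-length NFIA cells and at 33.9, 50.2 and 40.2 FPKM in mutant cells. The 3 groups did not overlap, and the mutant samples now lay below the controls. *Myod1* fell by 1.56 ± 0.17 on the log2 scale in full-length NFIA cells (2.95-fold, limma adjusted p = 1.70e-05), just short of a call, and by 0.82 ± 0.17 in mutant cells (1.76-fold, limma adjusted p = 0.00332). The first is called when control sample 2, full-length sample 1 or full-length sample 3 is left out (log2 change -1.62, -1.70 and -1.61).

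*Myog* stood at 1254, 1198 and 1374 FPKM in control samples, at 248, 159 and 192 FPKM in full-length NFIA cells and at 349, 584 and 533 FPKM in mutant cells. All groups were apart. It fell by 2.69 ± 0.19 on the log2 scale in full-length NFIA cells (6.46-fold, limma adjusted p = 6.46e-07), which was called, and by 1.41 ± 0.19 in mutant cells (2.67-fold, limma adjusted p = 0.000259), which was not. The lowest mutant sample, with 349 FPKM, was also the one with 1415 FPKM of *Fabp4*, a fatty acid carrier of adipocytes, against 294 and 354 FPKM in the other mutant samples. Without it the log2 changes in mutant cells were -0.69 for *Myod1*, -1.19 for *Myog*, 0.51 for *Myf5*, -1.75 for *Myf6* and -0.95 for *Gm45923*, all with the same calls.

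*Myf5* stood at 24.6, 29.0 and 27.6 FPKM in control samples, at 4.16, 3.01 and 4.03 FPKM in full-length NFIA cells and at 34.2, 38.1 and 39.6 FPKM in mutant cells. Here the mutant samples were above the controls. *Myf5* fell by 2.57 ± 0.10 on the log2 scale in full-length NFIA cells, which was called (5.95-fold, limma adjusted p = 9.30e-09), and rose by 0.45 ± 0.10 in mutant cells (1.37-fold, limma adjusted p = 0.00528). The mutant was 8.12-fold above full-length NFIA (limma adjusted p = 4.92e-09).

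*Myf6* stood at 110, 114 and 156 FPKM in control samples, at 0.502, 0.428 and 0.702 FPKM in full-length NFIA cells and at 35.3, 34.9 and 37.7 FPKM in mutant cells. It thus went from more than 100 FPKM in every control sample to under 1 FPKM in every full-length sample, with 27 fragments over the 3 libraries against 6752. The log2 change was -6.35 ± 0.12 in full-length NFIA cells (81.7-fold, limma adjusted p = 1.09e-10) and -1.77 ± 0.12 in mutant cells (3.40-fold, limma adjusted p = 3.58e-06), and both were called. In mean FPKM, which has no added constant, the first difference was 232-fold. The mutant was 24.0-fold above full-length NFIA in FPKM + 1 (limma adjusted p = 1.11e-09).

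*Gm45923* stood at 1.65, 2.64 and 2.63 FPKM in control samples (13, 23 and 16 fragments), at 0.605, 0.187 and 0.169 FPKM in full-length NFIA cells (3, 2 and 1 fragments) and at 0.171, 0.528 and 0.872 FPKM in mutant cells (1, 6 and 8 fragments). Every sample with a construct lay below every control sample, and the 2 constructs overlapped. The log2 change was -1.32 ± 0.20 in full-length NFIA cells (limma adjusted p = 0.000145) and -1.13 ± 0.20 in mutant cells (limma adjusted p = 0.00108), both falls short of a call on this scale. In mean FPKM they were 7.20-fold (95% counting interval 3.54 to 23.5) and 4.41-fold (2.24 to 7.72), and with a constant of 0.1 FPKM in place of 1 both were called (log2 change -2.64 and -2.10). The mutant and full-length NFIA differed by 0.20 on the log2 scale, with a 95% confidence interval of -0.24 to 0.64 (limma adjusted p = 0.410). For this comparison *Gm45923* passed the filter through control cells (mean 2.31 FPKM), with means of 0.321 FPKM in full-length NFIA cells and 0.524 FPKM in mutant cells. It thus rests on few fragments and cannot show that the constructs were alike.

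Of the 5 members, 3 (*Myog*, *Myf5* and *Myf6*) were called lower in full-length NFIA cells at day 7, where 3.30% of all 12324 genes tested were, and 1 (*Myf6*) in mutant cells, where 0.503% were. *Myf5* and *Myf6* were called higher in mutant cells than in full-length NFIA cells, against 2.60% of all genes.

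The levels after forskolin repeated this order of the constructs. *Myod1* was 77.4, 79.5 and 77.6 FPKM in control samples, 23.3, 21.3 and 16.8 FPKM in full-length NFIA cells and 47.3, 54.7 and 62.9 FPKM in mutant cells. *Myog* was 1168, 1188 and 1166 FPKM, then 186, 162 and 143 FPKM, then 493, 614 and 575 FPKM, in the same order of groups. *Myf5* was 39.6, 44.5 and 40.5 FPKM, then 2.85, 3.38 and 1.64 FPKM, then 53.1, 64.5 and 58.9 FPKM. For *Myod1* and *Myog* the mutant samples lay between the other groups, and for *Myf5* above both. *Myf6* was 166, 203 and 161 FPKM, then 0.546, 0.321 and 0.579 FPKM, then 40.8, 37.6 and 39.4 FPKM. *Gm45923* was 2.28, 2.18 and 2.88 FPKM, then 0.658, 0.331 and 0.127 FPKM, then 0.261, 0.688 and 0.228 FPKM. For both, every sample with a construct lay below every control sample.

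With full-length NFIA, 4 members were called lower after forskolin, *Myod1* (log2 change -1.90 ± 0.12), *Myog* (-2.84 ± 0.10), *Myf5* (-3.58 ± 0.15) and *Myf6* (-6.90 ± 0.10), against 3.77% of all 12121 genes tested. *Gm45923* changed by -1.34 ± 0.16. With the mutant 1 member was called lower, *Myf6* (-2.13 ± 0.10), against 0.685% of all genes. As at day 7, *Gm45923* was also called lower with a constant of 0.1 FPKM and by limma-voom, in full-length NFIA cells (-2.59 and -2.70) and in mutant cells (-2.48 and -2.65). *Myog*, *Myf5* and *Myf6* were called higher in mutant cells than in full-length NFIA cells, against 2.89% of all genes. The median gene changed by -0.17 on the log2 scale between full-length NFIA and control in these samples. Scaled to the median ratio of the libraries, the members' changes were -1.71, -2.65, -3.43 and -6.78 for the 4 factors.

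**Figure D3:**
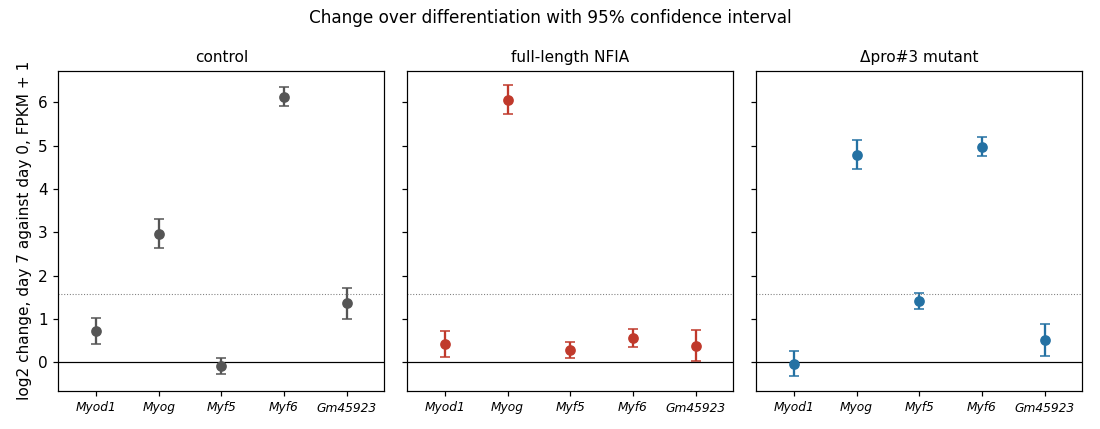
Change of each member from day 0 to day 7 in log2(FPKM + 1) with its 95% confidence interval, one panel per construct; the dotted line marks 3-fold. *Myog* rises in all 3, most in full-length NFIA cells (6.06, against 2.97 in control cells and 4.79 in the mutant), while *Myf6* rises by 6.13 in control cells, 4.98 in the mutant and 0.56 in full-length NFIA cells (2.21 with a constant of 0.1 FPKM).

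The third comparison followed each member from day 0 to day 7 within a construct. In control cells *Myog* rose by 2.97 ± 0.16 on the log2 scale (7.84-fold, limma adjusted p = 2.48e-11) and *Myf6* by 6.13 ± 0.10 (70.2-fold, limma adjusted p = 1.77e-17). *Myod1* rose by 0.73 ± 0.14 and *Gm45923* by 1.36 ± 0.17, while *Myf5* changed by -0.08 ± 0.09 (limma adjusted p = 0.429). Thus 2 of 5 members were called higher, where 3.65% of all 12408 genes tested were. *Gm45923* was called as well with a constant of 0.1 FPKM (2.79) and by limma-voom (3.14).

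With full-length NFIA *Myog* rose by 6.06 ± 0.16 on the log2 scale (66.7-fold), from 1.96 to 199.6 FPKM on average, a level at which its samples overlapped with control cells at day 0 (161.5 FPKM). *Myf6* rose by 0.56 ± 0.10, from 0.0422 to 0.544 FPKM, and *Myf5* by 0.29 ± 0.09 (limma adjusted p = 0.00631, and 0.0703 by limma-voom). *Myod1* rose by 0.42 ± 0.14 (limma adjusted p = 0.0113, and 0.0784 without full-length sample 1 at day 7). On the scale of FPKM + 1 *Myog* was the 1 member called higher, against 5.38% of all genes. With a constant of 0.1 FPKM and by limma-voom, *Myf6* (2.21 and 3.17) and *Gm45923* (1.92 and 2.71, against 0.39 ± 0.17 with a constant of 1) were called too. These rest on few fragments, 4 at day 0 and 27 at day 7 for *Myf6*, and 0 and 6 for *Gm45923*. Both passed the filter through other groups. With a constant of 1 the *Gm45923* change (limma adjusted p = 0.0486) no longer passed without the filter (0.0749) or with a replicate block (0.0636). Nor did it pass without full-length sample 1 at day 7 (0.234) or any 1 full-length sample at day 0. In the mutant *Myog* rose by 4.79 ± 0.16 and *Myf6* by 4.98 ± 0.10, which were called, against 3.91% of all genes, and *Myf5* rose by 1.42 ± 0.09 (2.67-fold). There *Gm45923* changed by 0.51 ± 0.17, and was called with a constant of 0.1 FPKM and by limma-voom (2.99 by the latter). That change rests on 2 fragments at day 0 and 15 at day 7. With a constant of 1 it no longer passed without mutant sample 3 at day 7 (0.35, limma adjusted p = 0.0785). *Myod1* in the mutant changed by -0.03 ± 0.14, from 41.7 to 41.4 FPKM.

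The rises differed between the constructs. *Myog* rose more in full-length NFIA cells than in control cells, with a difference of 3.09 ± 0.22 on the log2 scale (limma adjusted p = 2.66e-09), and more in the mutant than in control cells (1.82 ± 0.22, limma adjusted p = 5.70e-06). *Myf6* rose less in full-length NFIA cells than in control cells (-5.57 ± 0.14, limma adjusted p = 1.03e-14). For *Myf5* the rise in the mutant exceeded that in control cells by 1.49 ± 0.12 (limma adjusted p = 6.08e-08) and that in full-length NFIA cells by 1.13 ± 0.12 (limma adjusted p = 6.06e-07). *Myod1* differed between the mutant and control (-0.75 ± 0.20, limma adjusted p = 0.00513), while full-length NFIA and control differed by -0.31 ± 0.20 (limma adjusted p = 0.171). In all, 4 of 5 members passed this test for full-length NFIA against control, 5 of 5 for the mutant against control and 3 of 5 for the mutant against full-length NFIA. Of all genes, 71.2%, 44.7% and 63.5% passed it, so passing is common and the sizes carry the comparison. The counts also depend on single samples through *Myod1*: full-length NFIA against control passes without full-length sample 1 at day 7 (-0.45, limma adjusted p = 0.0417), and the mutant against full-length NFIA (-0.45 ± 0.20, limma adjusted p = 0.0582) passes without full-length sample 2 (-0.64) or mutant sample 2 (-0.59) at day 7. *Gm45923*, and *Myf6* in the mutant, start near 0. With 0.1 FPKM the *Gm45923* differences from control kept about their size (-0.87 and -0.79). Their SE was then 0.75 against 0.24, and they no longer passed (limma adjusted p = 0.311 and 0.421). By limma-voom they were smaller and did not pass either (-0.43 and -0.14, adjusted p = 0.711 and 0.917). For *Myf6* the size of the difference between the mutant and control does rest on the constant. With 0.1 FPKM it was -0.07 (limma adjusted p = 0.879).

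After forskolin, limma called 0 of the 5 members in any construct. An unadjusted p under 0.05 was reached by 2 members in control cells, 1 in full-length NFIA cells and 2 in mutant cells, and limma-voom also called 0. Even an adjusted p under 0.05 was reached by 20.5%, 55.4% and 35.8% of all genes in these cells, in the same order, so such counts are ordinary. Called in either direction were 0.392% of all 12245 genes in control cells, 0.743% in full-length NFIA cells and 0.588% in the mutant. At an adjusted p under 0.05 alone, *Myf5* rose by 0.60 ± 0.14 in control cells (limma adjusted p = 0.00640) and by 0.64 ± 0.14 in the mutant (limma adjusted p = 0.00234). In full-length NFIA cells its change was -0.41 ± 0.14 (limma adjusted p = 0.0232), where the median gene changed by -0.15. That value no longer passed with median-ratio scaling (-0.31, limma adjusted p = 0.0876), by limma-voom (-0.48, adjusted p = 0.0875), or without full-length sample 1 or 3 at day 7 or sample 3 after forskolin (-0.34, -0.36 and -0.20). *Myf6* changed by 0.49 ± 0.12 in control cells (limma adjusted p = 0.00673, and 0.0612 with a constant of 0.1 FPKM). The other log2 changes lay between -0.27 and 0.41.

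The response of *Myf5* in full-length NFIA cells differed from that in control cells by -1.01 ± 0.20 on the log2 scale (limma adjusted p = 0.00135) and from that in the mutant, which was higher by 1.05 ± 0.20 (limma adjusted p = 0.00151). *Myf6* responded less in full-length NFIA cells than in control cells (-0.55 ± 0.17, limma adjusted p = 0.0198). This made 2 of 5 members for full-length NFIA against control, 0 of 5 for the mutant against control and 1 of 5 for the mutant against full-length NFIA, where 30.6%, 4.97% and 21.7% of all genes passed. Leaving out 1 sample adds *Myf6* for the mutant against control (-0.53 without control sample 3 at day 7) and *Myod1* for the mutant against full-length NFIA (0.65 ± 0.23 with all samples, and 0.84 or 0.79 without full-length or mutant sample 2 at day 7, 0.74 or 0.75 without full-length or mutant sample 1 after forskolin). The *Myf6* difference no longer passed with a constant of 0.1 FPKM (-0.65, limma adjusted p = 0.0621), and it was -0.45 to -0.71 when 1 sample was left out, passing in 7 of 12 such fits. It failed without control sample 1 or 2 or full-length sample 3 at day 7, and without control sample 2 or full-length sample 2 after forskolin.

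Across the 9 groups the order of levels differed between the members. For *Myod1* the 3 full-length groups were lowest, at 17.8 to 24.6 FPKM on average. The group after forskolin overlapped with those at day 0 and day 7, which did not overlap with each other. The mutant at day 7 (41.4 FPKM), the mutant at day 0 (41.7 FPKM) and control at day 0 (43.7 FPKM) formed a second run of overlapping groups, and control at day 7 and after forskolin were highest (73.2 and 78.2 FPKM, overlapping). For *Myog* the lowest were full-length NFIA, the mutant and control at day 0, at 1.96, 16.3 and 161.5 FPKM. Control at day 0 overlapped with full-length NFIA after forskolin (163.6 FPKM), and control at day 7 was highest (1275 FPKM). For *Myf5* the mutant after forskolin was highest (58.8 FPKM), above control after forskolin (41.5 FPKM) and the mutant at day 7 (37.3 FPKM), with no overlap between these neighbours. For *Myf6* the day 7 groups in full-length NFIA cells (0.482 and 0.544 FPKM) lay below control at day 0 (0.792 FPKM). The 7 lowest groups of *Gm45923*, from 0 to 0.524 FPKM, each overlapped with the next, and the control groups at day 7 and after forskolin stood above them (2.31 and 2.45 FPKM).

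**Figure D4:**
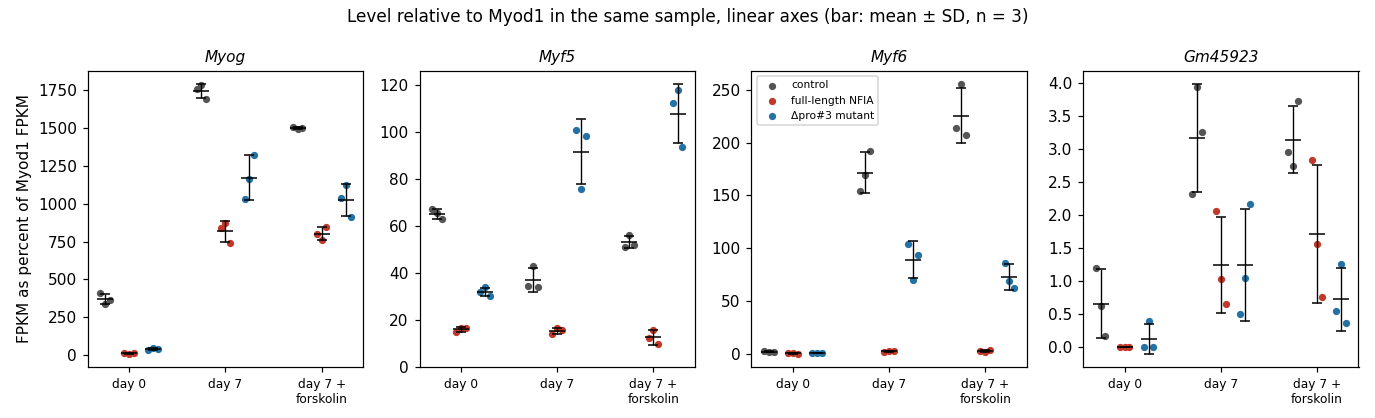
Level of each of the other members as a percent of the *Myod1* FPKM in the same sample, by time point and construct, with a linear axis of its own for each gene; points are samples and bars the mean ± SD (n = 3). *Myf5* exceeds the control ratio in the mutant at day 7 and after forskolin, and lies below it at day 0.

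Setting each member against *Myod1* in the same sample shows whether the factors moved in proportion. FPKM is per length, so the ratio compares levels. *Myog* was 371 ± 36.0% of *Myod1* in control cells at day 0 (SD, n = 3), 11.1 ± 1.28% in full-length NFIA cells and 39.1 ± 4.78% in mutant cells. At day 7 the values were 1746 ± 45.0%, 817 ± 69.2% and 1173 ± 147%, in the same order. The groups did not overlap at either time. Over the 3 time points the log2 ratio, with 1 added to both FPKM values, differed from control by -2.20 in full-length NFIA cells and by -1.44 in mutant cells. Each had an adjusted p of 0.0005 in an exact permutation test of the construct labels within time points, two-sided, adjusted over 12 comparisons. The raw p of 0.00025 is the smallest that the 8000 arrangements can give.

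*Myf5* was 65.3 ± 2.24% of *Myod1* in control cells at day 0, 16.1 ± 1.02% in full-length NFIA cells and 32.0 ± 1.87% in mutant cells. At day 7 it was 37.2 ± 5.14%, 15.4 ± 1.17% and 91.7 ± 13.9%. The ratio in full-length NFIA cells stayed near the same value at both times while the other groups moved in opposite directions. Over the 3 time points the difference from control was -1.46 in full-length NFIA cells (exact permutation adjusted p = 0.0005) and 0.43 in mutant cells (exact permutation adjusted p = 0.126), the latter a mean of a negative value at day 0 (-0.98) and positive values at day 7 (1.27) and after forskolin (1.00). Within 1 time point an exact permutation of 3 against 3 cannot give a p below 0.1, and these gave 0.1.

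*Myf6* reached 172 ± 19.5% of *Myod1* in control cells at day 7, 2.25 ± 0.507% in full-length NFIA cells and 89.2 ± 17.9% in mutant cells. Its difference from control over the time points was -3.11 in full-length NFIA cells (exact permutation adjusted p = 0.0066) and -1.04 in mutant cells (exact permutation adjusted p = 0.0005). The first is a mean of a positive value at day 0 (0.47) and negative values at day 7 (-4.79) and after forskolin (-5.01), and without the forskolin samples it was -2.16 and no longer passed (exact permutation adjusted p = 0.12). At day 0, where it was near 0, its ratio was 1.82 ± 0.215% in control cells and 0.233 ± 0.265% in full-length NFIA cells, so the percentages with no added constant were lower at that time too. Compared as percentages over the 3 time points, the difference in full-length NFIA cells was -131.5 percentage points (exact permutation adjusted p = 0.00043), by the test chosen after the data were seen.

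*Gm45923* was 0.660 ± 0.516% of *Myod1* in control cells at day 0, 0% in full-length NFIA cells and 0.131 ± 0.226% in mutant cells. At day 7 it was 3.16 ± 0.812%, 1.24 ± 0.726% and 1.24 ± 0.849%, and the samples with a construct lay below all control samples. After forskolin it was 3.14 ± 0.512%, 1.71 ± 1.04% and 0.724 ± 0.472%, and one full-length sample (2.82%) was within the control range. Compared as percentages over the 3 time points, the ratio differed from that in control cells by -1.34 percentage points in full-length NFIA cells (exact permutation adjusted p = 0.00075) and by -1.62 in mutant cells (exact permutation adjusted p = 0.001), a test chosen after the data were seen. The test on the log2 ratio with 1 added gave the opposite sign for full-length NFIA (0.56, exact permutation adjusted p = 0.00225), and with 0.1 added it gave -0.72 (exact permutation adjusted p = 0.0171). For full-length NFIA the direction of the log2 ratio of this low gene thus depended on the added constant. With 1 added, the mutant differed from control by -0.44 (exact permutation adjusted p = 0.00682). It differed from full-length NFIA by -1.01 (exact permutation adjusted p = 0.000857). As percentages the latter was -0.29 percentage points (exact permutation adjusted p = 0.383).

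The makeup of the family differed as well. Summed over the 4 bHLH factors, FPKM was 235 ± 2.33 in control cells at day 0, 22.7 ± 0.538 in full-length NFIA cells and 71.5 ± 0.739 in mutant cells (SD, n = 3). *Myog* made up 68.8% of that sum in control cells, and *Myod1* made up 78.5% in full-length NFIA cells and 58.4% in mutant cells. At day 7 the sums were 1502 ± 121, 228 ± 50.6 and 603 ± 134 FPKM, and *Myog* made up 85.0%, 87.4% and 80.6% of them. *Myf6* made up 8.37%, 0.243% and 6.18%.

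The partners and regulators of these factors were read from textbook lists, which were chosen with earlier results of these data known. None of the 3 E proteins (*Tcf3*, *Tcf4* and *Tcf12*), which pair with the myogenic factors, was called against control at day 0, day 7 or after forskolin for either construct, by limma or limma-voom. An unadjusted p under 0.05 was reached by 3 of 3 at day 0 for both constructs, where 73.3% and 62.2% of all genes reached even an adjusted p under 0.05. The median log2 change of the E proteins at day 0 was -0.86 in full-length NFIA cells and -0.59 in mutant cells, against 0.01 for all genes in both. Of 13 inhibitors of bHLH factors, 10 were tested at day 0. In full-length NFIA cells 2 of these were called lower and 1 higher, against 2.78% and 2.46% of all genes. *Id2*, which binds E proteins without binding DNA, went from 21.0 ± 0.250 FPKM in control cells to 72.6 ± 3.38 in full-length NFIA cells and 69.2 ± 0.294 in mutant cells. It was called higher with both constructs (log2 change 1.74 ± 0.03 and 1.67 ± 0.03), where 2.46% and 0.859% of all genes were, and the constructs differed by -0.07 ± 0.03 (limma adjusted p = 0.107). At day 7 *Id2* was 17.5, 13.6 and 15.4 FPKM on average in control cells, full-length NFIA and the mutant.

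*Heyl*, a Notch target that represses transcription, was called lower at day 0 with both constructs, from 21.2 ± 0.600 FPKM to 2.74 ± 0.234 in full-length NFIA cells and 4.12 ± 0.122 in mutant cells. *Msc*, a bHLH repressor also called musculin, was called lower in full-length NFIA cells (log2 change -1.84 ± 0.08) and fell by 0.42 ± 0.08 in mutant cells. Of 12 factors upstream of the family, 10 were tested at day 0 and 1 was called, *Klf5*, a zinc finger factor. The study itself reports less KLF5 protein with full-length NFIA, so this entry was not chosen blind. *Klf5* RNA went from 10.5 ± 1.32 FPKM to 1.06 ± 0.183 in full-length NFIA cells and 2.51 ± 0.0730 in mutant cells. It was called lower with both, where 2.78% and 1.32% of all genes were. At day 7 the calls against control in full-length NFIA cells were 0 of 11 inhibitors by limma (10 with an unadjusted p under 0.05, and 3 called by limma-voom) and 1 of 10 upstream factors, *Klf5* again. Of all genes, 3.30% were called lower and 4.87% higher there, and 72.4% reached an adjusted p under 0.05. Of the 7 cofactors, limma and limma-voom called 0 at day 0, with an unadjusted p under 0.05 for 6 in full-length NFIA cells and 7 in mutant cells. Of all genes, 73.3% and 62.2% reached even an adjusted p under 0.05 there. At day 7, 1 cofactor was called lower in full-length NFIA cells, where 3.30% of all genes were. It was *Mef2c*, a MADS-box partner of the myogenic factors, named here after its value was seen. Its log2 change was -2.32 ± 0.07 in full-length NFIA cells and -0.14 ± 0.07 in mutant cells (limma adjusted p = 0.137), and the difference between the constructs was 2.18 ± 0.07 (limma adjusted p = 3.92e-09).

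**Figure D5:**
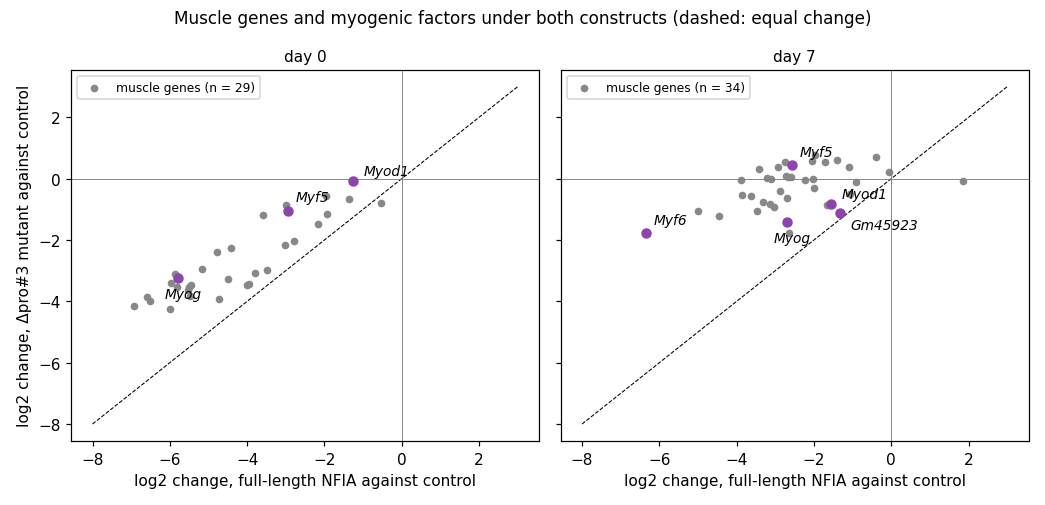
Log2 change in FPKM + 1 against control in full-length NFIA cells (horizontal) and in Δpro#3 mutant cells (vertical) for the muscle genes tested (grey) and the members (purple), at day 0 and day 7; the dashed line marks equal change, and both axes use the same control samples. At day 0 the grey points lie below 0 on both axes, and at day 7 they lie on both sides of 0 for the mutant, from -1.77 for *Mymx* to 0.78 for *Acta1*, with *Myf6*, *Myog*, *Gm45923* and *Myod1* between -1.77 and -0.82 and *Myf5* at 0.45.

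Muscle genes that the family switches on were a list of 34, most of them of the contractile apparatus, with others, among them genes for fusion, the acetylcholine receptor, calcium handling, adhesion and arrest of the cell cycle. *Des*, *Cdh15* and *Itga7* are also among the myoblast markers above. At day 0, 27 of 29 tested were called lower in full-length NFIA cells and 22 in mutant cells, against 2.78% and 1.32% of all genes, with median log2 changes of -4.48 and -3.10 (0.01 for all genes in both). *Mylpf*, the fast light chain of myosin, went from 339.9 ± 27.5 FPKM in control cells to 1.80 ± 0.162 in full-length NFIA cells and 18.4 ± 2.59 in mutant cells. *Acta1*, skeletal actin, went from 245 ± 7.86 FPKM to 1.54 ± 0.190 and 16.1 ± 0.689. *Actc1*, cardiac actin, and *Myh3*, the embryonic heavy chain of myosin, were 92.0-fold and 64.1-fold lower in FPKM + 1 in full-length NFIA cells and 15.7-fold and 19.2-fold lower in mutant cells, all called (SE of the log2 change 0.08 for *Actc1* and 0.05 for *Myh3*). Between the constructs, 16 of 29 were called higher in mutant cells, against 0.925% of all genes.

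At day 7, in full-length NFIA cells 27 of 34 were called lower, against 3.30% of all genes, and 1 higher, *Cdkn1c*, an inhibitor of the cell cycle (log2 change 1.85 ± 0.25, against 4.87% of all genes called higher). With the mutant 1 of 34 was called lower, *Mymx*, a fusion peptide of the myoblast membrane (-1.77 ± 0.19), against 0.503% of all genes, and the median change was -0.05, against -0.04 for all genes. At an adjusted p under 0.05 alone, which 48.8% of all genes passed in one direction or the other, 13 of the 34 fell in mutant cells, 9 rose and 12 did not pass. Those that fell furthest after *Mymx* were *Mybpc2* (-1.22 ± 0.10), *Casq2*, which binds calcium (-1.06 ± 0.09), and *Mybpc1* (-1.06 ± 0.10). Those that rose furthest were *Acta1* and *Cdh15*, a cadherin (0.71 ± 0.09). *Cdkn1c*, *Mymx*, *Mybpc2*, *Casq2*, *Mybpc1* and *Cdh15* were named after their values were seen. *Mylpf* was 3376 ± 315 FPKM in control cells and 3531 ± 136 in mutant cells (log2 change 0.07 ± 0.11, limma adjusted p = 0.635), and *Acta1* was 2825 ± 242 and 4832 ± 232 (0.78 ± 0.10, limma adjusted p = 0.000207). Between the constructs 26 of 34 muscle genes were called higher in mutant cells, against 2.60% of all genes, and 1 lower (*Cdkn1c*, against 3.70% called lower). After forskolin 28 of 34 were called lower in full-length NFIA cells (3.77% of all genes) and 0 in mutant cells by limma (0.685% of all genes), where 24 had an unadjusted p under 0.05 and limma-voom called 0. At an adjusted p under 0.05 alone, which 46.6% of all genes passed in mutant cells, 16 of these muscle genes fell and 8 rose.

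The genes next to the members were read from the GENCODE annotation, with up to 3 on each side. Around *Myod1* 4 of 6 stayed below the filter, with a highest level of 0.674 FPKM among them in any sample. *Sergef*, with its start 263 kb downstream, was tested at both times and changed at day 0 by -0.02 ± 0.08 in full-length NFIA cells (limma adjusted p = 0.859) and by -0.01 ± 0.08 in mutant cells. At day 7 it fell by 0.46 ± 0.08 in full-length NFIA cells (limma adjusted p = 0.000383) and rose by 0.27 ± 0.08 in mutant cells (limma adjusted p = 0.0150). *Otog*, which lies 65.0 kb upstream, passed the filter at day 7 and fell by 1.51 ± 0.08 and by 0.78 ± 0.08. Around *Myog*, *Mybph*, a myosin binding protein gene 88.8 kb upstream, was called lower at day 0 with both constructs (-5.83 ± 0.10 and -3.55 ± 0.10), and fell by 3.32 ± 0.12 and by 0.75 ± 0.12 at day 7. *Mybph* is also among the muscle genes already counted above. *Adora1*, an adenosine receptor gene 54.6 kb upstream, was tested at day 7 alone, where it changed by 0.12 ± 0.14 in full-length NFIA cells (limma adjusted p = 0.461) and rose by 0.99 ± 0.14 in mutant cells. *Ppfia4*, which encodes a liprin and lies 4.24 kb past the end of *Myog* with its own start 42.9 kb from that of *Myog*, fell by 1.79 ± 0.06 in full-length NFIA cells and by 1.60 ± 0.06 in mutant cells at day 0, both called, and by 1.73 ± 0.13 and 1.13 ± 0.13 at day 7. *Tmem183a*, 53.6 kb past *Myog*, changed by -0.19 ± 0.03 and -0.15 ± 0.03 at day 0 and by -0.60 ± 0.06 and -0.12 ± 0.06 at day 7. Around *Myf5* and *Myf6*, *Lin7a*, 57.8 kb past *Myf5*, fell at day 0 by 1.50 ± 0.07 and by 1.06 ± 0.07, and *Ppp1r12a*, 667 kb away on the other side, changed by 0.02 ± 0.04 and 0.30 ± 0.04 at day 0 and by -0.82 ± 0.06 and -0.07 ± 0.06 at day 7. *Acss3*, an acyl-CoA synthetase gene 359 kb away on the side of *Lin7a*, went the other way: it rose by 0.53 ± 0.08 and by 0.85 ± 0.08 at day 0, and at day 7 by 2.60 ± 0.13 in full-length NFIA cells, which was called (limma adjusted p = 3.89e-08), and by 0.54 ± 0.13 in mutant cells. The other neighbours of these members were below the filter.

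Over the 27 samples, 11582 genes with a mean of at least 1 FPKM were ranked by the Pearson correlation of log2(FPKM + 1) with each member. The points share groups and libraries, so the values describe likeness of pattern only. For *Myog* the nearest were *Mymk*, a fusion factor (r = 0.992), *Tnnt3*, the fast troponin T (r = 0.989), and *Map1lc3a*, an autophagy gene (r = 0.988). For *Myf6* they were *Myoz1*, a Z-disc protein (r = 0.995), *Mybpc2*, a fast myosin binding protein (r = 0.990), and *Tspan13*, a tetraspanin (r = 0.988). For *Myf5* they were *Snx1* (r = 0.975), *Popdc3* (r = 0.968) and *Tnfaip2* (r = 0.958). For *Myod1* they were *Pisd* (r = 0.948), *Spry2* (r = 0.947) and *Zfas1* (r = 0.944), and for *Gm45923* *Ripply1* (r = 0.944), *Ms4a4d* (r = 0.938) and *Rnf4* (r = 0.936). Among the members *Myod1* and *Myf5* were most alike (r = 0.883), and *Myf5* and *Gm45923* least (r = 0.478), while *Gm45923* with *Myod1* gave 0.724 and with *Myf6* 0.817.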

How the data were processed

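Poly(A) RNA was sequenced from strand-specific libraries. Per the study's methods and the submitters' processing notes, reads were aligned with STAR 2.5.3a to mm9, and uniquely mapped reads on the matching strand were counted per gene. The annotation version is not given in the sources used here. The authors deposited FPKM values, 1 file per sample, with gene, strand and length. From them fragments were recovered, since 100% of values were whole multiples (tolerance 0.05) of what 1 fragment is worth. Depth was 9567769 to 27230965 fragments per sample (median 17707223), and intervals and floors cover counting error only.

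Log2(FPKM + 1) was tested with limma 3.58.1 (variance trend, R 4.3.3), with 9 samples per time point and 18 for changes between days or with forskolin, on genes with a mean of at least 0.5 FPKM. Calls used an adjusted p under 0.05 and over 3-fold. In data simulated for full-length NFIA against control at day 0 (12091 genes), 72% of 4-fold and 93.6% of 8-fold changes were recovered and 0 unchanged genes called. Ratios and members below the filter used exact permutation tests. Replicate pairs differed by more than counting noise, so none was counted as 1 sample. Alternatives were a pseudocount of 0.1, median-ratio scaling, no filter, no trend, a replicate block, 2 groups only, limma-voom 3.58.1 on fragments, and leaving out each sample.

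Genes named are the 5 members, up to 4 called per textbook list (largest change with full-length NFIA at day 0 first), up to 3 neighbours per side, and the top correlated genes. The members and lists were chosen with earlier results of these data known. RefSeq promoter windows were matched for 3 of 5 members, and *Myod1* and *Myf6* were not among them.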

Additional observations from a re-analysis of the deposited data

Results flagged for a closer look

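The results below are those in which the change over time or with forskolin differed between constructs by limma's test of the difference itself (adjusted p under 0.05), in log2(FPKM + 1). From day 0 to day 7, the change with full-length NFIA differed from that in control cells by 3.09 for *Myog*, 0.36 for *Myf5*, -5.57 for *Myf6* and -0.98 for *Gm45923*. The change in the mutant differed from that in control cells by -0.75 for *Myod1*, 1.82 for *Myog*, 1.49 for *Myf5*, -1.16 for *Myf6* and -0.85 for *Gm45923*. The mutant differed from full-length NFIA by -1.27 for *Myog*, 1.13 for *Myf5* and 4.41 for *Myf6*. With forskolin, full-length NFIA differed from control by -1.01 for *Myf5* and -0.55 for *Myf6*, and the mutant from full-length NFIA by 1.05 for *Myf5*. *Myf6* and *Gm45923* are near 0 at day 0. The size of the *Myf6* difference between the mutant and control over time rests on the added constant of 1 FPKM. With 0.1 FPKM it was -0.07 and did not pass. The other *Myf6* differences over time kept their direction and still passed under every named alternative. With 0.1 FPKM those of *Gm45923* from control were -0.87 with full-length NFIA and -0.79 in the mutant. Their SE was then 0.75 against 0.24, and neither passed. By limma-voom they were -0.43 and -0.14, and neither passed.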

How the results depend on the processing

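Of 667 values refitted under a named alternative, 631 kept their direction and their side of the threshold, 18 newly passed it, 11 no longer did and 7 changed sign; of 984 fits without 1 sample, 948 kept both and 20 changed sign. At day 7 the change with full-length NFIA was called for *Myod1* with a pseudocount of 0.1 (-1.59) and by limma-voom (-1.64), and was -1.37 to -1.70 without 1 sample. *Gm45923* at day 7 was called with a pseudocount of 0.1 (-2.64 with full-length NFIA, -2.10 with the mutant) and by limma-voom (-2.83 and -2.08). Signs changed for the difference of the *Gm45923* forskolin response between full-length NFIA and control (0.043 with a pseudocount of 0.1, 0.13 by limma-voom, -0.16 to 0.13 without 1 sample), *Gm45923* in the mutant against full-length NFIA after forskolin (-0.012 with median-ratio scaling, -0.12 to 0.17 without 1 sample), *Myod1* from day 0 to day 7 in the mutant (0.10 with median-ratio scaling, -0.17 to 0.11 without 1 sample) and the *Myf6* difference between the mutant and control over differentiation (0.32 by limma-voom). The ratio of *Gm45923* to *Myod1* with full-length NFIA against control became -0.72 with a pseudocount of 0.1 and -1.34 percentage points with none (added after the data were seen), and with the mutant it was -0.26 without the forskolin samples, no longer passing. Without 1 sample, signs also changed for the *Gm45923* difference between the constructs over differentiation (-0.036 to 0.30), for forskolin on *Gm45923* in control cells (-0.081 to 0.15), full-length NFIA (-0.093 to 0.20) and the mutant (-0.30 to 0.043), on *Myf6* with full-length NFIA (-0.11 to 0.021), and for the forskolin differences of *Myog* between full-length NFIA and control (-0.30 to 0.013) and *Myf5* between the mutant and control (-0.026 to 0.11), each of which had missed the threshold. Beyond what the alternatives' own construction shows, the cause was not tested.

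The replicate numbers did not pair the samples: same-numbered samples correlated at -0.187 to 0.123, and 1 of 27 correlations was over 0.1. With the replicate number as a block, 0 of 99 member values changed call or direction, and *Myog* with full-length NFIA at day 0 stayed at -5.78. Calls over all genes were more frequent with a pseudocount of 0.1 and by limma-voom, for example 1082 and 1131 against 634 between full-length NFIA and control at day 0, and 417 and 479 against 177 between the mutant and control at day 7. For the changes themselves, these counts use calls, so one short of 3-fold that lost its adjusted p under 0.05 is not among them. Depth limits *Gm45923*, with 0 to 26 fragments per sample, and *Myf6* at day 0.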
